A study of Homo sapiens with 10 samples.

Results

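The cytosolic ribosomal protein genes were taken by symbol, as RPL or RPS followed by a number and an optional A, X or L ending, with RPLP0, RPLP1, RPLP2 and RPSA added and with pseudogenes and Y-linked copies left out. The deposited annotation held 84 such genes among 57110 gene identifiers, and 341 of its 99493 transcripts belonged to them. Of the 84 genes, 46 encode canonical proteins of the large subunit, 31 encode canonical proteins of the small subunit, and 7 are paralogs of canonical members (RPL3L, RPL7L1, RPL10L, RPL22L1, RPL26L1, RPL39L and RPS27L). The genes lie on 21 chromosomes, with 12 of them on chromosome 19. In 6 cases the annotation joins the member with overlapping genes under a single identifier (RPL17 with C18orf32, RPL26 with KRBA2 and another gene, RPL36 with HSD11B1L, RPL36A with an RPL36A-HNRNPH2 readthrough, RPS10 with NUDT3, and RPS15A with ARL6IP1 and another gene), so their gene counts also hold reads of the partners.

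Nanopore reads from total RNA of 7 human ovarian cancer cell lines were counted per transcript in 10 libraries. IGROV-1 was read in 2 libraries on the PromethION and in 2 on the MinION, a smaller sequencer, and COV362, COV504, OVKATE, OVMANA, OVTOKO and SK-OV-3 had 1 PromethION library each. The labels name no treatment, no culture condition and no separate cultures for the IGROV-1 replicates, so p-values measure only the spread between these IGROV-1 libraries, which may be technical. A line with 1 library is taken to vary as much as IGROV-1 does. Library totals lay between 1729782 and 3666224 counts. PAX8, a transcription factor of the Müllerian epithelium, stood at 84.1 to 339.8 CPM (a transcript's count scaled to a common library total) in the 10 libraries, and the epithelial keratins KRT18 and KRT19 at 244 to 1080 and 140 to 177 CPM in the 4 IGROV-1 libraries. The epithelial genes CDH1 and KRT7 were at 0 in those libraries, and the leukocyte and red cell genes PTPRC, CD3E and HBB reached at most 0.8 CPM in any library. Mitochondrial genes took 13.02% and 15.16% of the counts in the IGROV-1 PromethION libraries, 5.63% and 6.35% in the MinION libraries and 2.82% to 4.54% in the other lines.

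Each ribosome is built from a large and a small subunit, and nearly every ribosomal protein is present once per particle, so that its genes are expressed together at high level in growing cells. Their mRNAs are short and carry a terminal oligopyrimidine tract, a run of C and T (U in the RNA) that starts at the cap with a C and through which growth signals control their translation. Several of the genes also hold small nucleolar RNAs (snoRNAs) in their introns, and a few have paralogs that can take the place of the canonical protein.

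The starts of the mRNAs are shown first because they are the sequence feature these genes have in common. Windows of 30 bases, 20 before and 10 from the annotated start, were read 5′ to 3′ on the gene's strand from RefSeq (GRCh38.p14), in which 67 of the 84 genes had an entry and 17 had none. Capitals mark the longest run of C and T within 10 bases on either side of the start.
RPS24, chr10:78033843-78033872, plus strand: ttggccggcgaatcgtggTTCTCTTTTCCT
RPL24, chr3:101686709-101686738, minus strand: gtctcttcccatgaTTCTCTCTTTCTTTTC
RPS3, chr11:75399498-75399527, plus strand: cttccgcccgcgagccaCTTCCTTTCCTTT
RPL34, chr4:108620556-108620585, plus strand: ctggcaaaggCTTTTTTCTTCCTCTTCCgg
RPL22L1, chr3:170870186-170870215, minus strand: gaccgcgcggccgtagCTTCCTCTCTgctc
RPS27L, chr15:63157468-63157497, minus strand: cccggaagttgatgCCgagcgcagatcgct
RPL26L1, chr5:172958709-172958738, plus strand: caggcagtctTCCaggggtcggcgaacgaa
The first 5 carry runs of 12 (RPS24), 16 (RPL24), 13 (RPS3), 18 (RPL34) and 10 bases (RPL22L1). The paralogs RPS27L and RPL26L1 have runs of 2 and 3 bases. Such short runs are not confined to paralogs, as RPL27, RPS15 and RPS29 have runs of 2 bases and RPL15 and RPS27A of 3. Over the 67 genes the median run was 10 bases, against 4 bases over the 35116 promoters of the table. A run of 8 or more bases was found in 45 members (67.2%) and in 9.2% of all promoters, and a C at the start itself in 47 members (70.1%) and in 14.7% of all promoters. The run may lie on either side of the annotated start, and only the gene's own strand was searched. A match describes the letters of the window and is not evidence that a tract is used.

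The members also share short transcripts and many snoRNAs. The most abundant transcript of a member had a median length of 922 nt, against 3014 nt for the most abundant transcript of all detected protein-coding genes. Genes for snoRNAs lay inside 28 members on the same strand (33.3%), which held 60 in all, against 1.28% of 19951 protein-coding genes. RPL4 held 5 snoRNA genes, and RPL7A, RPL13A and RPL23A held 4 each.

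The 84 genes supplied between 6.99% and 25.47% of all counts of a library. Their share was 6.99% in OVKATE, 11.18% in SK-OV-3, 12.81% in COV504, 18.08% in OVMANA, 19.76% in OVTOKO and 22.85% in COV362. In IGROV-1 it was 21.43% and 19.51% on the PromethION and 25.47% and 22.70% on the MinION. OVKATE therefore lay lowest and COV362 highest of the 7 lines, 3.27-fold apart, with 95% Wilson intervals of 6.96% to 7.03% and 22.80% to 22.91%. These intervals cover counting error only. The IGROV-1 libraries spread further than that among themselves. OVTOKO lay between the 2 IGROV-1 libraries on the PromethION. COV362 lay above both, but within the 19.51% to 25.47% of the 4 IGROV-1 libraries, which includes the difference between instruments. With 1 library each for OVTOKO and COV362, the order of these lines and IGROV-1 is not settled. In bulk RNA a lower share can come from less ribosomal protein mRNA or from more of other RNA, and fewer cells of a type and less RNA per cell cannot be told apart.

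**Figure D1:**
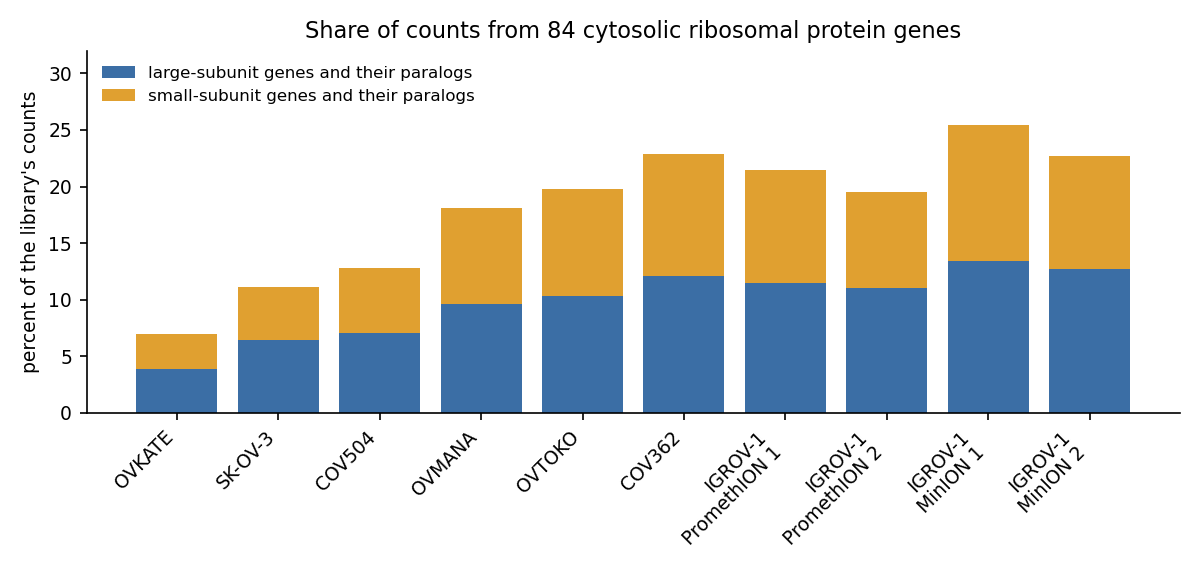
Percent of each library's counts (y axis) from the 84 cytosolic ribosomal protein genes, stacked as large-subunit and small-subunit genes with their paralogs, in the 10 libraries (x axis). OVKATE stands at 6.99% and COV362 at 22.85%, and the 4 IGROV-1 libraries lie between 19.51% and 25.47%.

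Summed over 52 large-subunit and 32 small-subunit genes, paralogs included, the large-subunit genes took more counts in each of the 10 libraries. With more genes on the large side, this does not compare levels per gene. The ratio of the sums ran from 1.10 in OVTOKO to 1.35 in SK-OV-3. The IGROV-1 libraries spanned most of this range, with ratios of 1.15 and 1.12 in the libraries numbered 1 and 1.30 and 1.27 in those numbered 2. Leaving out mitochondrial counts from the denominator raised IGROV-1 PromethION to 24.64% and 23.00% and left OVKATE lowest at 7.26%, with COV362 at 23.88%. Pseudogenes named after members added little, 0.3% to 0.51% of the members' own counts, although 962 such copies are annotated. The copies of RPS27A held the most, up to 569.80 CPM in a library.

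Levels among members are given as CPM, in which a long read stands for a molecule and no length correction is applied. Detection at 1 count or more in every library was seen for 82 members, and 64 averaged at least 1000 CPM over the 7 lines. The highest means belonged to RPS2 (5660 CPM), a small-subunit protein at the mRNA entry side, RPLP1 (5367 CPM), an acidic protein of the large-subunit stalk, and RPS3 (5204 CPM), which also lines the mRNA entry channel. RPS27A, RPS6, RPL37A and RPLP0 were also among the 8 highest, with means from 3528 down to 3373 CPM. The lowest canonical members were RPS26 (36.3 CPM), RPL21 (70.7 CPM) and RPL36A (90.1 CPM). RPS26 lay between 19.1 and 66.6 CPM in every library, and its annotated pseudogene copies held no more than 1.24 CPM. RPL10L was at 0 counts in each of the 10 libraries, which allows up to 0.82 to 1.73 CPM, and RPL3L did not exceed 2 counts in a library.

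The low level in OVKATE ran through nearly the whole set rather than through a few abundant genes. Of the 82 members detected in every library, 64 had their lowest level of the 7 lines in OVKATE and 9 in SK-OV-3, while 35 had their highest in COV362, 17 in IGROV-1, 13 in OVMANA and 13 in OVTOKO. RPS2, the most abundant member, stood at 2327 CPM in OVKATE, 2707 in SK-OV-3, 4849 in OVMANA, 5943 in COV504, 7182 in OVTOKO, 8569 in COV362 and 8217 and 7867 in IGROV-1 on the PromethION. RPL23, a large-subunit protein at the interface with the small subunit, varied most among canonical members, from 288 CPM in OVKATE and 663 in COV504 to 1392 in COV362, 1483 in SK-OV-3, 1948 in OVTOKO, 2364 in OVMANA and 2596 and 2488 in IGROV-1. The OVKATE value of RPL23 is thus 8.83-fold under the IGROV-1 mean. RPS18 spanned 8.5-fold and RPS12 7.82-fold between OVKATE and the highest line. The narrowest ranges over the 7 lines included 1.71-fold for RPL35A, lowest in OVTOKO, and 1.88-fold for RPL30, lowest in SK-OV-3.

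Each line was compared with IGROV-1 PromethION by edgeR's quasi-likelihood test with TMM normalization over 13030 genes, which included 82 members (RPL3L and RPL10L fell under the filter on low counts). In OVKATE 75 members were lower and 2 higher at an adjusted p under 0.05, against 22.4% lower and 26.8% higher among all genes tested. The members' median log2 change was −1.88, with 0.01 for all genes. In SK-OV-3 65 members were lower and 1 higher (19.8% and 22.0% of all genes), with a median of −1.01 beside 0.00. In COV504 56 were lower and 2 higher (19.6% and 24.0% of all genes), with a median of −0.90 beside 0.00. In all 3 of these comparisons 51 members were called lower, as were 1042 of all genes tested. The comparisons share the IGROV-1 controls, and the counts above already fix much of this overlap.

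The other lines stayed near IGROV-1. In OVMANA 10 members were higher and 20 lower (18.9% and 16.5% of all genes), with a median log2 change of −0.12 beside −0.01. In OVTOKO 4 were higher and 5 lower (18.2% and 15.9% of all genes), with a median of −0.05 beside 0.00, so that fewer members than other genes were called. Scaling to total counts gave 4 higher and 12 lower there, DESeq2's size factors in edgeR gave 6 and 5, and the fit without the first IGROV-1 PromethION library gave 7 and 4. In COV362 22 members were higher and 10 lower (23.7% and 18.8% of all genes), with a median of 0.16 beside 0.04, and 18 were called without the second IGROV-1 PromethION library. All 6 comparisons use the same control libraries and are not independent of each other. RPL21 was the only tested member called in no line.

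**Figure D2:**
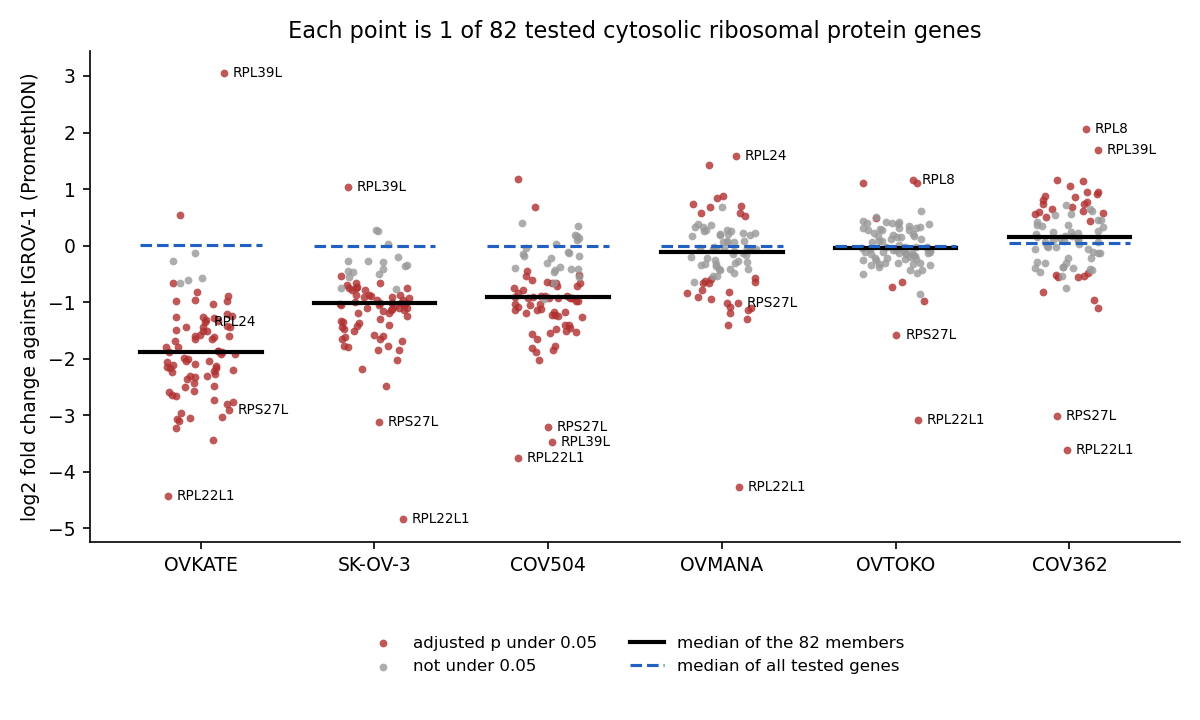
log2 fold change of each of the 82 tested members against IGROV-1 PromethION (y axis) in the 6 other lines (x axis), coloured by edgeR's adjusted p. Black bars are the members' medians (−1.88 in OVKATE, −1.01 in SK-OV-3, −0.90 in COV504) and dashed bars the medians of all tested genes, which lie near 0.

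Both subunits took part. In OVKATE 43 of 46 canonical large-subunit genes and 29 of 31 small-subunit genes were lower, with median log2 changes of −1.92 and −1.88. In SK-OV-3 the medians were −1.01 and −1.10, with 38 and 25 genes lower. In COV504 they were −0.86 and −0.92, with 34 and 19 genes lower. No canonical member of either subunit was called higher in OVKATE or SK-OV-3 by edgeR's test.

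Against this shared movement a few members followed a course of their own. To describe it, each member's log2 CPM was set against the median canonical member of the same library, and a line was marked where this relative level lay at least 1 log2 unit from the member's median over the 7 lines. Of 82 members with a mean of at least 10 CPM, 64 had no such line. RPL10A, a protein of the large subunit's L1 stalk, was the steadiest, with an SD of 0.11 log2 units over the 7 lines, followed by RPL6 (0.17) and RPS23 (0.19). The paralogs RPL39L (2.38), RPL22L1 (1.40), RPS27L (1.06) and RPL26L1 (0.92) varied most. OVKATE held 8 of the marked members, more than any other line, of which 6 were relatively high.

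RPL24, a large-subunit protein that forms a bridge to the small subunit, was relatively high in OVMANA. It measured 4386 CPM in OVMANA, against 744 in OVKATE, 850 in COV504, 1311 in OVTOKO, 1469 in SK-OV-3, 2529 in COV362 and 1666 and 1397 in IGROV-1. The OVMANA level lay above all 9 other libraries. Its log2 change against IGROV-1 PromethION was 1.58 ± 0.19 (SE), with an edgeR adjusted p of 0.00046. RPL8, a protein of the large subunit's core, measured 6896 CPM in COV362 and 3595 in OVTOKO, against 1179 to 2655 in the other 4 lines and 1761 and 1632 in IGROV-1. Its log2 change was 2.07 ± 0.16 (SE) in COV362, with an edgeR adjusted p of 4.0e-05.

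Genes next to some of these members deviated the same way. For each marked member, the expressed genes outside the set starting within 1 Mb were compared with their own 7-line medians on the TMM scale, a measure chosen after the values were seen. In 20 of the 27 marked pairs of a member and a line, the share of neighbours on the member's side was above that of all genes, and in 7 it was not. Around RPL24 (chromosome 3, 101681091 to 101686782, GRCh38), 9 of 10 neighbours were higher in OVMANA, by a median of 0.94 log2 units, where 39.4% of all genes were higher. Around RPL8 (chromosome 8, 144789765 to 144792587), 36 of 40 neighbours were higher in COV362, by a median of 0.86, where 44.9% of all genes were. In OVKATE the neighbours of RPL35A were higher in 8 of 8 cases (median 1.07), those of RPL30 in 12 of 13 (0.99) and those of RPS28 in 22 of 28 (0.76), where 45.6% of all genes were. RPL35A held 2085 CPM in OVKATE and 1698 to 2906 CPM in the other PromethION libraries, and was not called there (log2 change −0.27 ± 0.16 SE, edgeR adjusted p = 0.1925). RPL30 held 2783 CPM in OVKATE and 2240 to 4227 CPM in the others, and fell less than the median member (−0.90 ± 0.16, edgeR adjusted p = 0.00218). RPL14 in SK-OV-3 was the counterpart, with all 6 neighbours lower (median −0.57). The neighbours of RPS3 were higher in 9 of 18 cases in OVTOKO and in COV362, where 40.2% and 44.9% of all genes were. Those of RPS28 were higher in 8 of 28 cases in OVTOKO, those of RPL26L1 in 2 of 12 in COV504, and those of RPS20 lower in 2 of 8 in OVMANA, although each member was marked in that direction there. The cause was not tested.

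The paralogs gave the widest differences between lines. RPL22L1 (chromosome 3, 170864875 to 170870483), a paralog of the large-subunit protein RPL22, measured 823 and 618 CPM in IGROV-1 on the PromethION and 1053 and 755 on the MinION. In the other lines it measured 29.4 CPM in SK-OV-3, 35.8 in OVMANA, 41.1 in OVKATE, 56.1 in COV504, 56.8 in COV362 and 80.4 in OVTOKO. The 4 IGROV-1 libraries lay above all others without overlap. The log2 changes ran from −3.09 ± 0.32 (SE) in OVTOKO to −4.84 ± 0.36 in SK-OV-3, with edgeR adjusted p-values of 0.00021 and 3.3e-05. RPL22 itself varied 2.34-fold over the lines, between 807 and 1889 CPM, so that RPL22L1 made up 32.3% to 42.6% of the pair in IGROV-1 and 2.45% to 6.32% elsewhere.

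RPS27L (chromosome 15, 63125872 to 63158021), a paralog of the small-subunit protein RPS27 known as a target of p53, was likewise highest in IGROV-1. It measured 727 and 678 CPM in IGROV-1 on the PromethION and 1026 and 998 on the MinION, against 334 in OVMANA, 224 in OVTOKO, 115 in OVKATE, 94.7 in SK-OV-3, 84.2 in COV362 and 80.5 in COV504. IGROV-1 was again above all other lines, with log2 changes between −1.01 ± 0.16 (SE) in OVMANA and −3.20 ± 0.19 in COV504 (edgeR adjusted p = 0.00184 and 7.7e-06). RPS27L exceeded RPS27 in each of the 4 IGROV-1 libraries, where it held 51.2% to 63.7% of the pair, and in none of the other lines, where it held 9.76% to 42.4%. RPL22L1 and RPS27L were the only members called lower in all 6 lines. Of the neighbours within 1 Mb, 3 of 10 around RPL22L1 (median −0.21 log2 units) and 8 of 12 around RPS27L (0.17) were higher in IGROV-1, where 41.4% of all genes were higher.

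RPL39L (chromosome 3, 187120948 to 187180908), the paralog of the tunnel-exit protein RPL39 best known from testis, was high in OVKATE instead. It measured 197 CPM there, from 399 counts, against 60.3 in COV362, 46.6 in SK-OV-3, 24.3 and 14.2 in IGROV-1, 22.4 in OVMANA, 17.9 in OVTOKO and 1.8 in COV504, where 4 counts were seen. The log2 change in OVKATE was 3.05 ± 0.28 (SE, edgeR adjusted p = 6.4e-05), and RPL39L held 65.1% of the RPL39 pair there, the only library in which it exceeded RPL39. In COV504 it fell, with a log2 change of −3.48 ± 0.64 (edgeR adjusted p = 0.00292). The call in SK-OV-3 (1.04 ± 0.33, edgeR adjusted p = 0.03348) was lost without the MinION libraries, at 0.06233. Of its 8 neighbours 6 were also higher in OVKATE, where 45.6% of all genes were. RPL39L was marked as relatively high in COV362 and SK-OV-3 too, with 4 and 3 neighbours higher, where 44.9% and 42.2% of all genes were. In COV504, where it was marked as low, 2 neighbours were lower, where 39.3% of all genes were. RPL26L1, the paralog of RPL26, was called higher in 4 lines and reached 138 CPM in COV504 and 103 in OVKATE against 56.4 and 58.8 in IGROV-1. Since RPL26 fell to 511 CPM in OVKATE, RPL26L1 held 16.8% of the pair there and 1.30% and 1.64% in IGROV-1. The OVKATE call of RPL26L1 was lost in edgeR without either IGROV-1 PromethION library, at adjusted p-values of 0.1126 and 0.0702. RPL7L1, a paralog of RPL7 that works in ribosome assembly, varied least of the detected paralogs, between 78.6 CPM in OVKATE and 162 CPM in COV362.

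**Figure D3:**
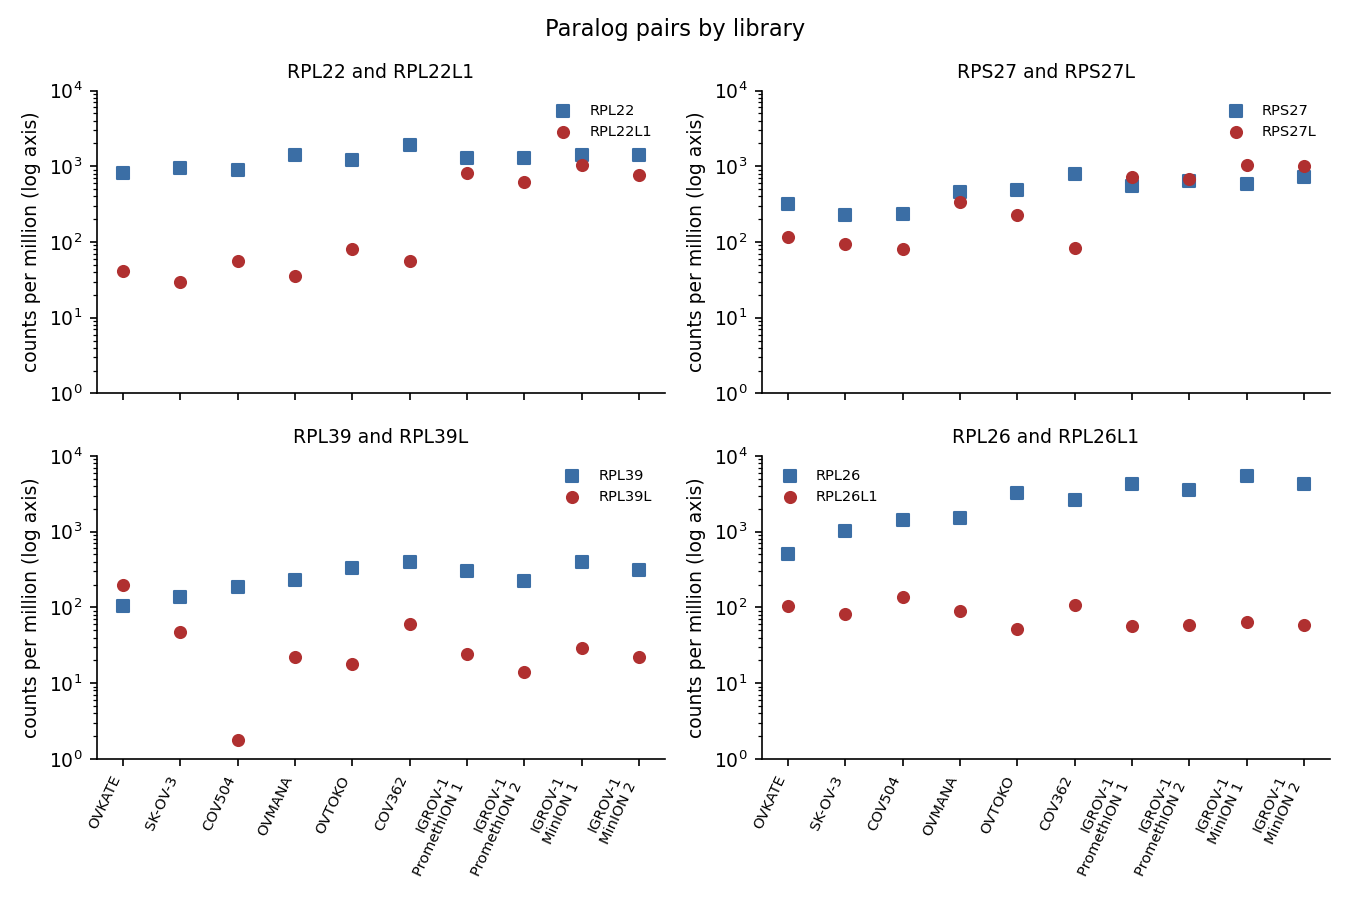
CPM on a log axis (y) of 4 canonical members (squares) and their paralogs (circles) in the 10 libraries (x). RPL22L1 and RPS27L stand highest in the 4 IGROV-1 libraries (618 to 1053 and 678 to 1026 CPM), RPL39L in OVKATE (197 CPM), and RPL26L1 in COV504 (138 CPM).

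Genes outside the symbol rule that complete the ribosome moved with the members in part. FAU encodes the small-subunit protein eS30 fused to a ubiquitin-like domain, RACK1 is a scaffold on the small subunit, and RPL36AL is a copy of RPL36A that encodes nearly the same protein. RACK1 was lower in OVKATE, SK-OV-3 and COV504, at 279 CPM in OVKATE against 855 and 908 in IGROV-1 (log2 change −1.96 ± 0.17 SE, edgeR adjusted p = 5.0e-05). RPL36AL was lower in the same 3 lines, with log2 changes of −0.76 ± 0.16, −0.98 ± 0.16 and −1.13 ± 0.16 (edgeR adjusted p = 0.00428, 0.00166 and 0.00081). FAU gave log2 changes of 0.12, −0.38 and 0.17 in these lines, none past the threshold in edgeR. In COV362 RACK1 and FAU rose, by 1.37 ± 0.15 and 1.08 ± 0.16 (edgeR adjusted p = 0.00022 and 0.00107). RPL36AL fell there, with a log2 change of −0.92 ± 0.16. RPL36AL exceeded RPL36A in each library, at 362 to 778 CPM against 30.7 to 178 CPM.

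Other transcripts that carry the same 5′ tract, chiefly translation factors, fell in OVKATE too. Of 20 genes in that list, 16 were lower and 0 higher in OVKATE by edgeR (22.4% and 26.8% of all genes). In SK-OV-3 13 were lower and 1 higher (19.8% and 22.0%), and in COV504 9 and 2 (19.6% and 24.0%). The median log2 changes were −1.33, −0.72 and −0.45. The list was mixed elsewhere. In OVMANA 8 were lower and 4 higher (16.5% and 18.9% of all genes). In OVTOKO 5 were lower and 5 higher (15.9% and 18.2%), and in COV362 5 and 7 (18.8% and 23.7%). EEF1A1, which delivers aminoacyl-tRNA to the ribosome, measured 2027 CPM in OVKATE against 11337 and 11528 in IGROV-1, and PABPC1, the poly(A) binding protein, 496 against 2410 and 2959. EIF3H, a subunit of the initiation factor eIF3, did not pass the threshold in OVKATE (0.14 ± 0.15 SE, edgeR adjusted p = 0.49) and rose in COV362 (1.80 ± 0.14, edgeR adjusted p = 4.9e-05). The list also holds VIM, an intermediate filament gene, which was lower in OVKATE and higher in the other 5 lines. Ribosome assembly factors were lower for 22 of 38 genes in OVKATE, 26 in SK-OV-3, 18 in OVTOKO and 17 in COV504. Their median log2 changes were −0.73, −0.84, −0.54 and −0.49, and 22.4%, 19.8%, 15.9% and 19.6% of all genes were lower. Higher assembly factors numbered 1, 0, 1 and 4 there. In OVMANA 11 were lower and 6 higher, and in COV362 9 and 6, where 16.5% and 18.8% of all genes were lower. RNA polymerase I genes were lower for 5 of 11 in OVKATE, SK-OV-3 and OVMANA (medians −0.63, −0.57 and −0.79). Of all genes 22.4%, 19.8% and 16.5% were lower there. In COV504 4 of the 11 were lower, where 19.6% of all genes were. In OVTOKO and in COV362 2 each were lower, near the share of all genes (15.9% and 18.8%). In OVMANA, OVTOKO and COV504 1 each was higher. Of the 78 mitochondrial ribosomal protein genes, which build a separate ribosome, 33 were higher and 5 lower in COV362 (23.7% and 18.8% of all genes). Their median log2 change there was 0.45. In OVKATE 20 were higher and 12 lower (median 0.21), and the share of higher genes was near that of all genes. They took 0.66% to 1.06% of the counts of a library.

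Most members used a single transcript. Of 72 members with at least 50 counts in every library and more than 1 annotated transcript, 44 had 1 transcript that took at least 90% of the gene in all libraries, and 71 kept the same leading transcript throughout. RPS24 was the exception. Where annotated transcripts are nearly the same in sequence, the estimated counts may only divide reads evenly, as for RPL36A, where a pair of transcripts had equal shares in every library.

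RPS24 (chromosome 10, 78033732 to 78056813) encodes a small-subunit protein whose C-terminal end is set by tiny alternative exons. Transcript ENST00000360830 includes a coding exon of 3 bases at 78037439 to 78037441, and ENST00000372360 skips it. The spliced sequences at this place, from GENCODE 29 on GRCh38, are shown with the exon in capitals.
ENST00000360830: gctggcaaaaagAAGtgagctggagat
ENST00000372360: gctggcaaaaagtgagctggagat
In both transcripts the next bases are TGA, the stop codon, so that the exon adds the codon AAG at the end of the reading frame. The transcript with the exon took 84.9% and 85.8% of RPS24 counts in IGROV-1 on the PromethION and 85.6% and 87.1% on the MinION. It took 76.4% in SK-OV-3, 75.7% in OVKATE, 50.1% in OVTOKO, 49.1% in COV362, 46.4% in COV504 and 33.9% (Wilson interval 32.5% to 35.2%) in OVMANA. The lines thus form 3 levels, with IGROV-1, SK-OV-3 and OVKATE mostly including the exon, OVTOKO, COV362 and COV504 near even use, and OVMANA mostly skipping it.

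edgeR's test of transcript usage, with a Simes p per gene, called RPS24 in OVMANA, COV504, COV362 and OVTOKO (adjusted p = 6.05e-05, 0.00011, 0.00012 and 0.00023), and these calls held without any of the 4 IGROV-1 libraries. In SK-OV-3 and OVKATE the adjusted p-values were 0.06626 and 0.06118. The total level of RPS24 gave no call in OVMANA (log2 change −0.06 ± 0.16 SE, edgeR adjusted p = 0.8135), while the skipping transcript rose by 2.25 ± 0.14 and the including transcript fell by 1.41 on the log2 scale (edgeR adjusted p = 0.00011 and 0.0012). Among all transcripts 13.1% were higher and 10.5% lower in OVMANA. The split rests on the alignment of a 3-base exon in long reads with sequencing errors, and its accuracy was not tested.

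**Figure D4:**
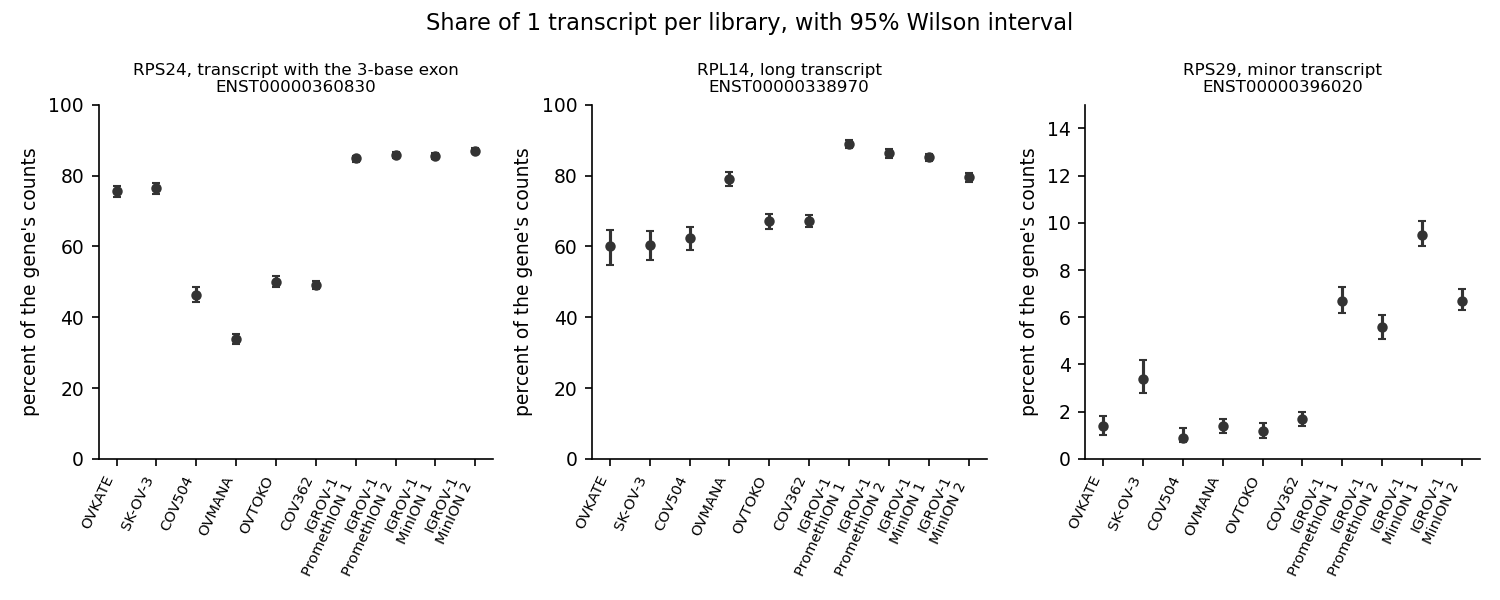
Percent of a gene's counts from 1 transcript (y axis) in the 10 libraries (x axis), for RPS24, RPL14 and RPS29, with 95% Wilson intervals that cover counting error only. The RPS24 transcript with the 3-base exon falls from 84.9% to 87.1% in IGROV-1 to 33.9% in OVMANA, and the other panels show the RPL14 and RPS29 transcripts highest in IGROV-1 (79.5% to 88.9% and 5.6% to 9.5%).

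Usage changed in a minority of the other members. Of 68 members tested, edgeR called 4 in OVMANA and 4 in SK-OV-3 (2.75% and 2.07% of 4730 genes), 6 in OVTOKO (1.35%), 9 in OVKATE (4.97%), 9 in COV504 (2.56%) and 10 in COV362 (2.98%). Leaving out any 1 of the 4 IGROV-1 libraries lowered these counts to between 1 and 5. RPL14, a large-subunit protein, was called in each line but OVMANA, with adjusted p-values from 0.00274 in OVKATE to 0.01028 in OVTOKO, and each of these calls was lost in edgeR without the first IGROV-1 PromethION library (0.06561 to 0.2292). Its long transcript ENST00000338970, of 7072 nt, took 88.9% and 86.4% of RPL14 counts in IGROV-1 on the PromethION and 85.2% and 79.5% on the MinION, against 79.2% in OVMANA and 60% to 67.1% in the other 5 lines. OVMANA thus lay just under the lowest IGROV-1 library. RPS29, a small-subunit zinc-finger protein, used the minor transcript ENST00000396020 for 5.6% to 9.5% of counts in IGROV-1 and for 0.9% to 3.4% elsewhere. RPS9, a core protein of the small subunit, was called in each line but OVKATE. Its transcript ENST00000391752 took 4.3% to 6.3% in IGROV-1, OVKATE and COV362, 1.5% in OVMANA and 0.4% in OVTOKO, SK-OV-3 and COV504. The call in COV362 thus came without a comparable drop of this transcript. After RPS24 and RPL14 the widest range of a share over the lines was that of RPL21, whose ENST00000319826 ran from 0.3% to 30.9%, at gene levels of only 40.8 to 103 CPM and without a usage call in a line. For RPS15A in OVKATE the change lay in a transcript of its joined neighbour ARL6IP1, at 22.5% against 4.3% to 13.3%, and the call was lost in edgeR without either IGROV-1 PromethION library (adjusted p = 0.2015 and 0.07592) or the second MinION library (0.05792).

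Between instruments the gene levels of IGROV-1 were compared without the replicate number as a block. Of 82 members 1 was called, as lower, against 0.817% of 10041 genes tested (0.707% lower and 0.11% higher). Leaving out either MinION library or the second PromethION library left 0 members called by edgeR, with 12, 27 and 5 at an unadjusted p under 0.05. No member was called higher in this edgeR fit or by DESeq2, although 22 had an unadjusted p under 0.05 in edgeR and 19 in DESeq2, and 64 of 82 had a log2 change above 0, with a median of 0.18. The summed share was 20.47% ± 1.36 (SD, n = 2) on the PromethION and 24.09% ± 1.96 (SD, n = 2) on the MinION. The difference of 3.62 points gave an exact two-sided permutation p of 0.33, the smallest that 2 against 2 libraries allow. Mitochondrial counts moved the other way, from 14.09% ± 1.51 to 5.99% ± 0.51 (SD, n = 2), and without them in the denominator the shares were 24.64% and 23.00% against 26.99% and 24.24%, which overlap.

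In the fits without the replicate number as a block, single transcripts separated the instruments more often than gene levels. With the block the order turned, with 61.0% of member genes and 44.2% of member transcripts called by edgeR. Over all features that fit called 1978 of 10041 genes and 2291 of 14023 transcripts. Without the block edgeR called 19 of 217 member transcripts, 13 higher and 6 lower on the MinION. Among all 14023 transcripts 0.87% were higher and 1.42% lower (2.29% in all). Without either MinION library none was called by edgeR (55 and 78 had an unadjusted p under 0.05), and without the first PromethION library 32 were. Usage differed for 15 of 65 members, against 5.98% of 2979 genes, and for 4 to 9 when a library was left out. Among the members called, the largest shifts of a share included those of RPL27A, RPL8, RPL13, RPS6 and RPL32. RPL27A, a large-subunit protein, used ENST00000530022 for 8.3% and 7.5% of counts on the PromethION and for 13.5% and 15.5% on the MinION, and the 6 other lines on the PromethION gave 7.0% to 8.5%. RPS6, the small-subunit protein phosphorylated by S6 kinase, used ENST00000380384 for 3.8% and 3.2% against 7.8% and 8.7%, with 3.1% to 6.1% in the other lines. RPL32 used ENST00000435983 for 2.5% and 2.7% against 5.9% and 6.3%, with 2.1% to 3.4% in the other lines. The usage calls of RPL27A and RPS6 were each lost in edgeR without any 1 of the 4 libraries, that of RPL32 without either PromethION library (adjusted p = 0.1139 and 0.06358) and that of RPL13 without the first (0.08153).

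RPS3 gave the same picture at higher depth. Its transcript ENST00000524851 made up 0.9% and 0.8% of counts in IGROV-1 on the PromethION, 0.6% to 0.9% in the 6 other lines, and 4.1% and 3.8% on the MinION (log2 change 2.56 ± 0.26 SE, edgeR adjusted p = 0.00243). RPL10, a large-subunit protein at the subunit interface, moved in the other direction, with ENST00000424325 at 4.3% to 4.6% in the 8 PromethION libraries and 1.7% and 2.1% on the MinION (log2 change −1.12 ± 0.15, edgeR adjusted p = 0.00742). Its usage call was lost in edgeR without the first MinION library or either PromethION library (adjusted p = 0.06762, 0.06096 and 0.0653). For RPS24 the instrument call (edgeR adjusted p = 1.1e-05) came with ENST00000435275, at 1.4% and 1.7% on the PromethION and 0.0% and 0.1% on the MinION, while the transcript with the 3-base exon took similar shares on both instruments, as given above. The values of RPL8, at 6.7% to 11.3% in the 8 PromethION libraries and 3.2% in both MinION libraries for ENST00000394920, and of RPL13, at 0.7% to 1.5% against 3.1% and 2.6% for ENST00000567815, were likewise apart. In the 7 members plotted by instrument, the PromethION libraries of 7 lines lay on one side of the IGROV-1 MinION libraries. The cause was not tested.

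**Figure D5:**
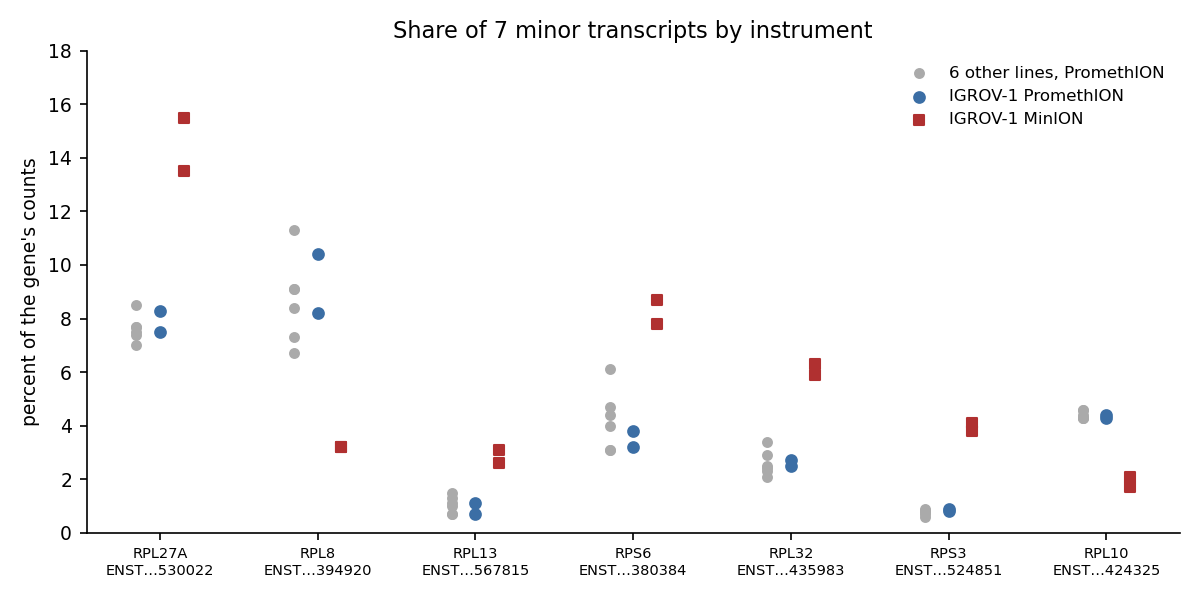
Percent of a gene's counts from 1 minor transcript (y axis) for 7 members (x axis), in the 6 other lines on the PromethION (grey), IGROV-1 on the PromethION (blue) and IGROV-1 on the MinION (red squares). In each of the 7 the MinION values lie outside the range of the PromethION libraries, such as 3.8% and 4.1% against 0.6% to 0.9% for RPS3.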

How the data were processed

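Estimated counts per transcript, which need not be whole, and a TPM column were deposited by the authors for each library. The deposited TPM equals CPM, the count scaled to a common library total, to within 5.6e-11 and is not divided by length. Per the submitters' processing notes minimap2 2.24-r1122 and GRCh38 were used. Quantification settings, annotation release and use of strand: not given in the sources used here. Of the gene identifiers 722 join several genes.

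Transcript counts were summed per gene and rounded for count tests. Tests used edgeR 4.0.16 (R 4.3.3) with its quasi-likelihood fit, TMM, the default filter on low counts and Benjamini-Hochberg adjustment over all features. The tests are two-sided, and a feature is called where its adjusted p is under 0.05. Instruments were compared on the 4 IGROV-1 libraries and lines in a fit over all 10. Usage was tested on transcripts with a Simes p per gene. An SE is the log2 change divided by the square root of F. A count of 0 allows up to 3 counts. DESeq2 1.42.0, other scalings and filters, and leaving out each IGROV-1 library were tried. The tests were checked on simulated data. Named members were RPS24, the paralogs and their partners, the 8 highest and lowest, the 10 widest ranges, up to 3 largest rises and 3 largest falls per comparison and the widest isoform shifts. Members named beyond these, including the steadiest, those with neighbours moving alike and RPS9, RPS29, RPS3 and RPL10 transcripts, were chosen after their values were seen. The members and lists were chosen with earlier results of these data known. Some genes are not reported here.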

Additional observations from a re-analysis of the deposited data

How the results depend on the processing

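With no filter on low counts 0 member genes and 0 transcripts were called between instruments by edgeR (23 and 86 had an unadjusted p under 0.05), where the report gives 1 and 19. Scaling to total counts called 2 genes, and fitting all 10 libraries called 12 transcripts. Leaving out 1 IGROV-1 library gave 0 to 1 genes, 0 to 32 transcripts and 4 to 9 members with changed usage. Against IGROV-1 PromethION, scaling to total counts called 16 members in OVTOKO instead of 9, and DESeq2 called 18 in COV362 instead of 32 (18 to 29 when a library was left out). Total scaling moved the median of all genes by 0.31 in OVKATE and 0.20 in SK-OV-3, with member medians of −1.58 and −0.78. Usage calls with a library left out numbered 2 in OVMANA, 1 to 4 in OVKATE, 2 to 3 in OVTOKO and in SK-OV-3, 3 to 4 in COV362 and 3 to 5 in COV504. These fits leave fewer residual degrees of freedom. The log2 changes of the members followed here kept their sign in the alternatives run, while the balance of calls in OVTOKO turned from 4 higher and 5 lower to 7 and 4 without the first PromethION library and to 6 and 5 with RLE size factors.

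The libraries numbered alike on both instruments deviated together, with r = 0.356 across 10041 genes and 0.805 across the 82 members, where genes are not independent replicates. With 2 pairs and no label that ties a number to a culture, it is not known what libraries of the same number have in common. With the replicate number as a block 50 member genes (40 higher and 10 lower), 96 transcripts and 24 members with changed usage were called between instruments, beside 1978 of 10041 genes, 2291 of 14023 transcripts and 234 of 2979 genes for usage over all features. Each line but IGROV-1 has 1 library, and depth limits the lowest members most, such as RPL39L in COV504 with 4 counts.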
